A study of Mus musculus with 48 samples.

Results

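Genes that mark endothelial cells, the cells lining blood vessels, or let leukocytes attach to them were followed through a mouse lung injury experiment. They are 10 of the 42548 genes in the count table: Selp (ENSMUSG00000026580), Sele (ENSMUSG00000026582), Vcam1 (ENSMUSG00000027962), Pecam1 (ENSMUSG00000020717), Cdh5 (ENSMUSG00000031871), Kdr (ENSMUSG00000062960), Vwf (ENSMUSG00000001930), Plvap (ENSMUSG00000034845), Car4 (ENSMUSG00000000805) and Ackr1 (ENSMUSG00000037872). The genes were chosen by name with their levels across the arms and compartments already known. The contrasts given here are therefore descriptions of genes selected on these libraries, and their p-values are not independent evidence.

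The series holds 48 libraries from 24 mice, an epithelial and a whole lung library from each. The arms were bleomycin with KIRA8 (5 mice), bleomycin with the 3G9 antibody (4 mice), bleomycin with a control treatment (9 mice) and saline with a control treatment (6 mice). Bleomycin injures the lung, KIRA8 inhibits the kinase of the stress sensor IRE1α, and 3G9 blocks the integrin αvβ6, which activates TGFβ. The control treatment was labelled Vehicle in batches S061 and S135 and Axum8 in batch S151. Mice of both sexes were used. Their age, strain, the driver that places the tagged ribosomes in epithelium, and the doses and times do not appear in the labels. RiboTag mice carry an HA tag on a ribosomal protein of a chosen cell type, and an anti-HA precipitation recovers the RNA on tagged ribosomes. The labels give that precipitation for both compartments, so how the whole lung libraries were prepared is not clear, and compartment differences may include a difference in preparation.

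Batch S061 held 3 KIRA8 and 3 bleomycin control mice. Batch S135 held 2 KIRA8, 2 bleomycin control and 3 saline mice. Batch S151 held 4 mice given 3G9, 4 bleomycin control and 3 saline mice. KIRA8 could thus be compared with its control in S061 and S135, bleomycin with saline in S135 and S151, and 3G9 in S151 alone. Library totals ran between 7163613 and 51797377 counts. Levels are CPM, counts scaled to the same total in every library. In S061, 146 genes that were nearly silent in the other batches took 6.01% to 12.7% of the epithelial counts and 7.21% to 9.81% of the whole lung counts, against at most 0.846% in any library of the other batches.

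Leukocytes leave the blood in steps. Selectins on activated endothelium catch the passing cells, and immunoglobulin-type adhesion molecules then hold them and guide them through the vessel wall. Selp (P-selectin) is stored in endothelial granules and in platelets, Sele (E-selectin) is made anew on activated endothelium, and Vcam1 binds integrins on leukocytes and is also made by some stromal cells. Ackr1 is a chemokine receptor without G-protein signalling that is found on venules and on red cells. Pecam1 and Cdh5 (VE-cadherin) sit at endothelial junctions, Kdr is the main VEGF receptor, and Vwf is the clotting protein stored with P-selectin. Plvap forms the diaphragms of endothelial pores, and Car4 is a membrane-bound carbonic anhydrase of lung capillaries.

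The RefSeq table of promoters (GRCm38.p6, 250 bases before to 50 after a start site) held 5 of the 10 genes: Selp, Sele, Ackr1, Kdr and Car4. The windows of the selectins Selp and Sele, of Ackr1, and of Kdr, a member called in both compartments, are printed as a description. No result on levels rests on them. Both strands were searched for TGANTCA (the AP-1 site), TATAAA (the TATA box) and GGAA (the ETS core), with no motif overlapping another. Capitals mark matches to TGANTCA and TATAAA. The windows are chr1:164115014-164115313 (plus strand) for Selp, chr1:164047984-164048283 (plus strand) for Sele, chr1:173333454-173333753 (minus strand) for Ackr1 and chr5:75978406-75978705 (minus strand) for Kdr.
Selp: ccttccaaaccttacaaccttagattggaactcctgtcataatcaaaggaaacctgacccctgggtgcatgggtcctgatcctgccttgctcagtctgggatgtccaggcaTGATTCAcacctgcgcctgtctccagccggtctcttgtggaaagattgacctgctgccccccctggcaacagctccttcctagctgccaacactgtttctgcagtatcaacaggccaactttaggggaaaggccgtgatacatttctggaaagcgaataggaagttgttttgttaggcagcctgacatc
Sele: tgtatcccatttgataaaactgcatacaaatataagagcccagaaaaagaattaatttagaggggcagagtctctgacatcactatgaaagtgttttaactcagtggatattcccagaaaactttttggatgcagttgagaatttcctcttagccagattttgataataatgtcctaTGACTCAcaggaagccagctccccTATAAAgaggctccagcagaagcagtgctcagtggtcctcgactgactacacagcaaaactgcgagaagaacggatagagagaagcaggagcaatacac
Ackr1: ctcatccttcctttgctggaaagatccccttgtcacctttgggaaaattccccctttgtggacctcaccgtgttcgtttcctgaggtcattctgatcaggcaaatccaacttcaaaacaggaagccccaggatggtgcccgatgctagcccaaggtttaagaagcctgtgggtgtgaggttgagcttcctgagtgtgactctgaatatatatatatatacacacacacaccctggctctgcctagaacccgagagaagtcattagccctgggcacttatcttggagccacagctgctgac
Kdr: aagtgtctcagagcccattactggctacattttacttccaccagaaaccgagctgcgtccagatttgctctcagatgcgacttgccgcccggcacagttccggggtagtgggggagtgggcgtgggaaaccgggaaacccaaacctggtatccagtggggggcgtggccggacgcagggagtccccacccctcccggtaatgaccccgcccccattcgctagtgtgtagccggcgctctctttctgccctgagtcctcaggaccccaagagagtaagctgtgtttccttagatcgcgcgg

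The Selp window held 1 match to TGANTCA, starting 139 bases before the start site, and the Sele window held 1 that starts 73 bases before it. The Sele window also held TATAAA, 49 bases before the start site. Neither pattern was in the Ackr1 or Kdr window. Of all 32851 promoter windows in the table, 7.8% held TGANTCA, 13.6% TATAAA and 96.0% GGAA. A fixed pattern that covers only part of the known NF-kB sites was also searched. It was in 0 of the 5 windows, where 5.6% of all windows held it. Other forms of the NF-kB site were not searched. Whether these windows, that of Sele included, hold or lack NF-kB sites was therefore not tested. GGAA was present 8 times for Selp, 7 for Ackr1, 5 for Kdr, 4 for Car4 and 3 for Sele. A match of letters is a description only. The Selp and Sele genes are near neighbours on mouse chromosome 1, at positions 164115264 to 164150026 and 164039614 to 164058487, and Ackr1 lies on the same chromosome at 173331886 to 173333503.

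In whole lung, Selp was the member that differed most clearly between arms. It rose 2.73-fold with bleomycin and fell with KIRA8, where it was 2.75-fold lower than in bleomycin controls. In S061 it was at 10.1, 6.49 and 5.39 CPM in KIRA8 mice, against 17.7, 22.3 and 18.0 CPM in bleomycin controls. The groups of S061 did not overlap. In S135 it was at 2.47 and 4.58 CPM in KIRA8 mice, against 13.3 and 4.54 CPM in bleomycin controls, so a KIRA8 mouse and a control mouse were nearly level. Saline mice of S135 were at 3.4, 3.04 and 4.65 CPM, close to the lower bleomycin control. In S151 the bleomycin controls had 6.06, 6.26, 4.24 and 8.88 CPM, against 1.7, 1.59 and 2.11 CPM in saline mice. All 4 bleomycin controls of S151 were above all 3 saline mice.

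**Figure D1:**
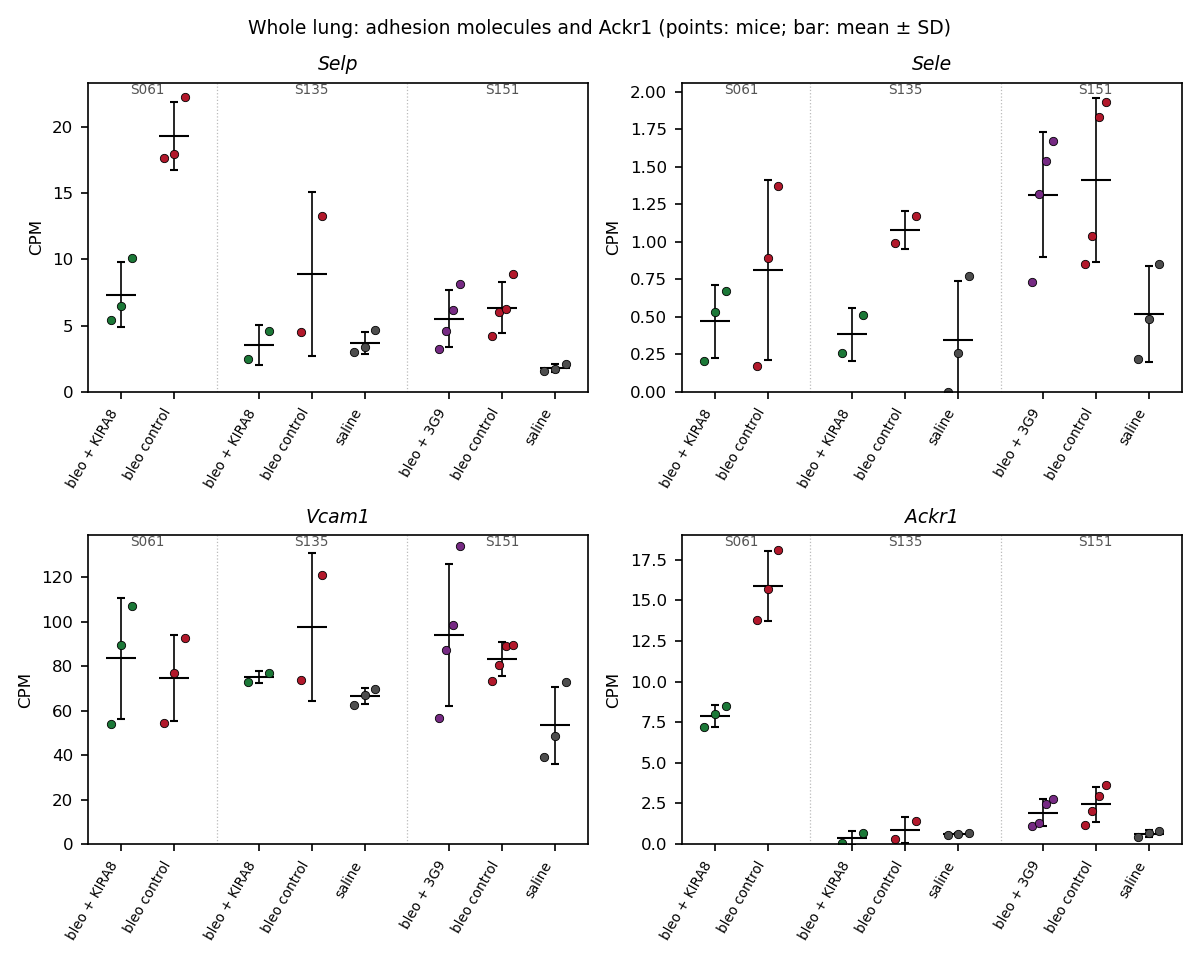
Whole lung CPM (linear axis) of Selp, Sele, Vcam1 and Ackr1 by batch and arm, a point per mouse, with bars for the mean ± SD. Selp stood at 5.39 to 10.1 CPM with KIRA8 and 17.7 to 22.3 CPM in bleomycin controls of S061, and Ackr1 was far higher in S061 than in the other batches.

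The fitted log2 change of Selp in whole lung was 1.45 ± 0.26 (SE) for bleomycin against saline, with an adjusted p of 0.000964 over all genes. It was 1.18 within S135, not called there (adjusted p 0.184), and 1.65 within S151 (adjusted p 0.0252). The bleomycin call held with each of the 15 mice left out in turn. For KIRA8 against bleomycin control the log2 change was -1.44 within S061 (adjusted p 0.0268) and -1.28 within S135, not called there (adjusted p 0.495). In the fit of all batches it was -1.46 ± 0.27, with an adjusted p of 0.0198. That call was lost, with the size little moved, when bleomycin control mouse 31 or 45 or KIRA8 mouse 32 or 41 was left out (adjusted p 0.0561, 0.0604, 0.0687 and 0.0659). It was also lost without batch S061 (-1.44, adjusted p 0.308) and in a fit of the 2 arms alone (-1.38, adjusted p 0.0549). The bleomycin and KIRA8 comparisons share the bleomycin control mice, so their opposite signs are not independent of each other. In bulk tissue, fewer cells of a type and less RNA per cell cannot be told apart.

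Set against Cdh5 in the same library, Selp had 36.8 to 79.0 counts per 1000 Cdh5 counts in KIRA8 mice of S061, against 164.0 to 222.0 in bleomycin controls. In S151 it had 10.4 to 15.4 per 1000 Cdh5 counts in bleomycin controls and 2.26 to 4.79 in saline mice. In S135 the figures were 8.34 and 15.7 in KIRA8 mice, 16.0 and 42.3 in bleomycin controls, and 7.53 to 13.5 in saline mice. In these ratios KIRA8 mice were below bleomycin controls, and bleomycin controls above saline mice, in each batch that held both. In S135 the nearest KIRA8 and control values, 15.7 and 16.0, were nearly level, and in CPM both comparisons overlapped there. Platelets also hold Selp and Vwf, and platelet genes could not be named from the table, so their part in the result was not tested.

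Sele was at 0.0 to 1.93 CPM in whole lung. Bleomycin controls had 0.989 and 1.17 CPM in S135, against 0.261, 0.0 and 0.775 CPM in saline mice. In S151 they had 1.93, 1.04, 0.855 and 1.83 CPM, against 0.852, 0.218 and 0.487 CPM in saline mice. Every bleomycin control of those batches was above every saline mouse of its batch, though 0.855 and 0.852 CPM are nearly level and libraries held only 0 to 64 counts. The log2 change was 1.28 ± 0.54 with an adjusted p of 0.134, which does not pass. With KIRA8, Sele stood at 0.203, 0.533 and 0.674 CPM in S061, against 1.37, 0.89 and 0.174 CPM in bleomycin controls, and the groups overlapped. In S135 it stood at 0.509 and 0.259 CPM with KIRA8, both below the 0.989 and 1.17 CPM of bleomycin controls. The log2 change with KIRA8 was -1.02 ± 0.60 (adjusted p 0.426).

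Vcam1 was at 39.1 to 134.0 CPM over the 24 whole lung libraries. In S151 it was at 89.1, 89.5, 73.2 and 80.7 CPM in bleomycin controls, against 39.1, 48.4 and 72.7 CPM in saline mice. In S135 it was at 121.0 and 74.0 CPM in bleomycin controls, against 69.7, 67.0 and 62.7 CPM in saline mice. Bleomycin controls were above saline mice in both batches, by little at the margin, and the log2 change of 0.42 ± 0.17 did not pass (adjusted p 0.117). KIRA8 mice of S061 had 107.0, 53.9 and 89.5 CPM, against 76.9, 92.6 and 54.5 CPM in bleomycin controls, which overlapped. The log2 change with KIRA8 was -0.10 ± 0.19, with a 95% interval of -0.47 to 0.27.

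Ackr1 levels varied widely with batch. In S061 it was at 8.52, 8.0 and 7.19 CPM in KIRA8 mice, against 18.1, 13.8 and 15.7 CPM in bleomycin controls. In S135 it was at 0.0728 and 0.691 CPM in KIRA8 mice, against 1.42 and 0.293 CPM in bleomycin controls and 0.563 to 0.697 CPM in saline mice. In S151 bleomycin controls had 2.97, 3.65, 1.17 and 2.03 CPM, against 0.824, 0.685 and 0.433 CPM in saline mice. The groups were apart in S061 and S151 and overlapped in S135. The log2 changes were 1.22 ± 0.40 with bleomycin (adjusted p 0.0535) and -1.22 ± 0.40 with KIRA8 (adjusted p 0.146), and neither passed. Within S061 alone the KIRA8 value was -1.04 with an adjusted p of 0.0413. Ackr1 is also carried by red cells, whose genes could not be named here, and their part was not tested.

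Among the structural markers, Kdr was the only one called in whole lung. It was at 388.0 and 472.0 CPM in bleomycin controls of S135, against 648.0, 582.0 and 636.0 CPM in saline mice, with no overlap. In S151 it was at 209.0, 224.0, 212.0 and 216.0 CPM in bleomycin controls, against 180.0, 217.0 and 338.0 CPM in saline mice, and the groups overlapped. The fitted log2 change was -0.44 ± 0.12 with an adjusted p of 0.025, a level 1.36-fold lower with bleomycin. The call was lost without bleomycin control mouse 148 (adjusted p 0.0726), without saline mouse 153 (0.051), without saline mouse 230 (0.084), without batch S061 (0.0618) and with total counts in place of TMM scaling (0.0915). With KIRA8, Kdr was at 238.0, 279.0 and 267.0 CPM in S061, against 196.0, 212.0 and 195.0 CPM in bleomycin controls. In S135 it was at 580.0 and 542.0 CPM with KIRA8, against 388.0 and 472.0 CPM in bleomycin controls. KIRA8 mice were above their controls in both batches, and the log2 difference of 0.32 ± 0.13 did not pass over all genes (adjusted p 0.257).

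Pecam1, Cdh5, Plvap and Car4 were lower on average with bleomycin without passing the test, and Vwf was level. The log2 changes were -0.32 ± 0.11 for Pecam1 (adjusted p 0.0699), -0.32 ± 0.18 for Cdh5 (0.259), -0.21 ± 0.17 for Plvap (0.468), -0.43 ± 0.16 for Car4 (0.0818) and -0.01 ± 0.14 for Vwf (0.987). Pecam1 had 272.0 and 281.0 CPM in bleomycin controls of S135, against 314.0, 362.0 and 335.0 CPM in saline mice, but 593.0 to 743.0 against 592.0 to 993.0 CPM in S151. The Plvap log2 difference was 0.15 in S135 and -0.38 in S151, opposite in sign and not called in either. Saline mouse 230 carried the highest Cdh5 and Plvap levels of its arm, at 932.0 and 873.0 CPM, and also the highest Kdr of its batch. Car4 was at 30.7, 59.0 and 39.6 CPM with KIRA8 in S061, against 19.8, 29.8 and 23.9 CPM in bleomycin controls. Its S135 levels were 119.0 and 86.5 CPM with KIRA8, against 93.4 and 91.9 CPM in bleomycin controls, and the groups overlapped. Its log2 change was 0.80 within S061, 0.18 within S135 and 0.54 ± 0.17 in the fit of all batches, which did not pass (adjusted p 0.133). Pecam1, Cdh5, Vwf and Plvap had KIRA8 log2 changes between -0.25 and 0.16, none of them called.

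**Figure D2:**
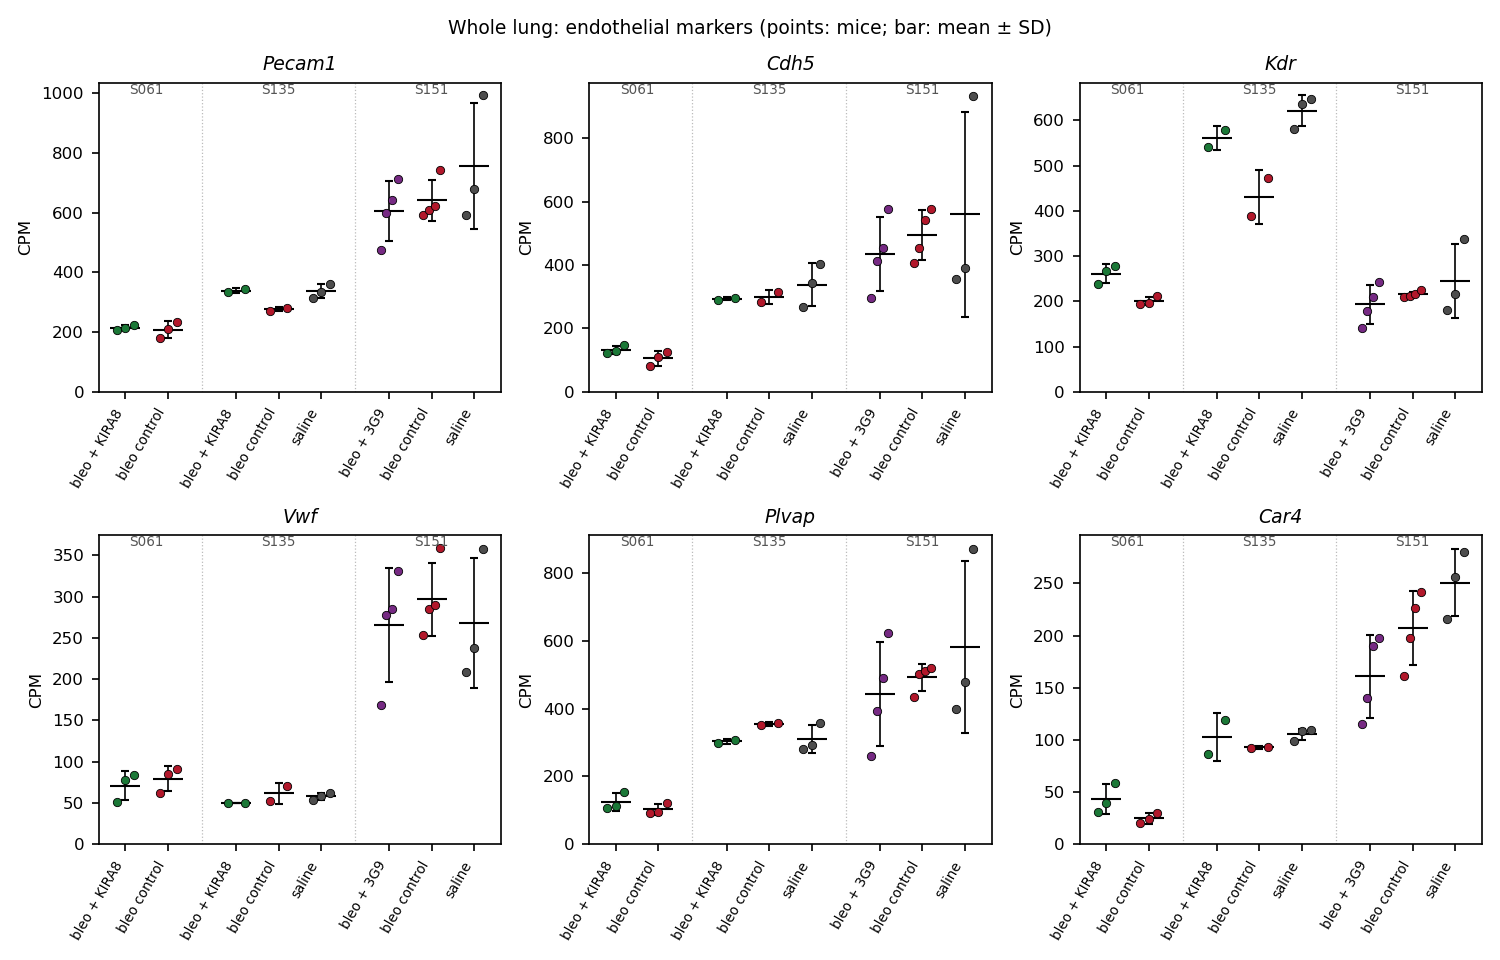
Whole lung CPM (linear axis) of Pecam1, Cdh5, Kdr, Vwf, Plvap and Car4 by batch and arm, a point per mouse, with bars for the mean ± SD. Levels also differ between batches, as for Vwf at 253.0 to 359.0 CPM in bleomycin controls of S151 and 52.3 to 70.4 CPM in those of S135.

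Counted over the list, 2 of 10 members were called in whole lung for bleomycin against saline, Selp higher and Kdr lower, where 10.1% of all genes tested were called. For KIRA8 against bleomycin control, 1 of 10 was called, Selp, where 0.527% of all genes were called. For 3G9 against bleomycin control, 0 of 10 were called, where 0.196% were called over all genes. The median log2 change of the members was -0.11 for bleomycin and 0.00 for KIRA8, where that of all genes was -0.01 in each. The rule used these contrasts, so the counts describe the members and support nothing further. In the 3G9 comparison, 0 members reached an unadjusted p of 0.05 with edgeR, where 1343 of 19345 genes did. DESeq2 and voom called 0 members, where they called 230 and 331 genes. The Selp log2 difference was -0.09 with a 95% interval of -0.65 to 0.48. Selp was at 4.59, 8.15, 6.19 and 3.2 CPM in 3G9 mice of S151, against the 4.24 to 8.88 CPM of bleomycin controls, with overlap. The KIRA8 and 3G9 arms lay in different batches with different control agents, so no difference between the 2 treatments was tested.

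**Figure D3:**
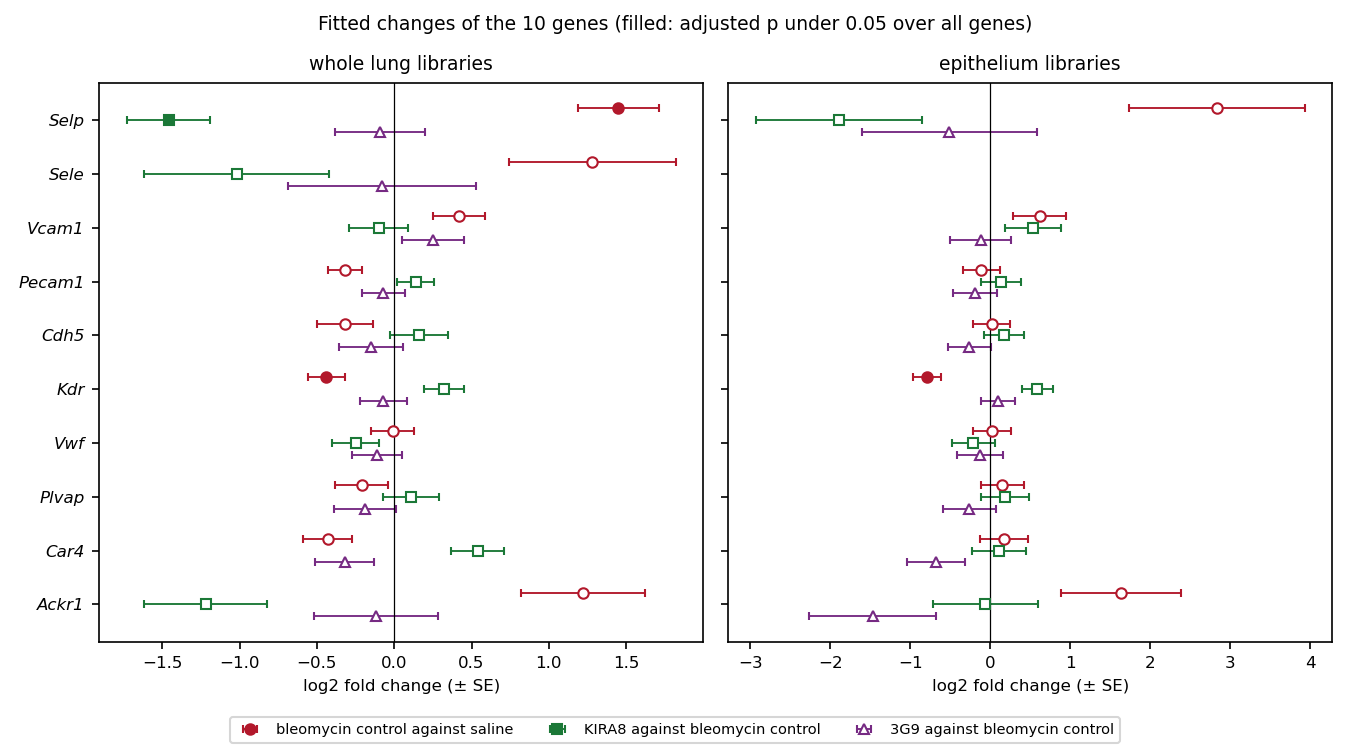
Fitted log2 fold changes ± SE of the members in whole lung (left) and epithelial libraries (right) for bleomycin control against saline, KIRA8 against bleomycin control and 3G9 against bleomycin control. Filled points passed an adjusted p of 0.05 over all genes: Selp for bleomycin and for KIRA8 and Kdr for bleomycin in whole lung, and Kdr for bleomycin in epithelium.

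In saline mice, the epithelial libraries held far less of these transcripts than whole lung. All 8 members that could be tested were lower in epithelium, where 57.5% of all genes were called in either direction. Their log2 differences ran from -1.64 for Kdr to -3.92 for Cdh5, apart from -5.95 for Selp. Selp passed the filter on low counts only through its whole lung counts. Its fall was thus built in by the filter, and its value and p are a description only. Sele and Ackr1 did not pass the filter on low counts. Within S151 alone Ackr1 did, and its log2 difference of -1.48 ± 1.08 was not called (adjusted p 0.269). The Selp value rests on 5 epithelial counts, all in saline mouse 146, with 0 in the other 5 mice, and it ranged from -8.67 to -5.57 with a mouse left out. Pecam1 differed by -3.13 ± 0.19, Vcam1 by -3.25 ± 0.30, Plvap by -3.60 ± 0.21, Vwf by -3.68 ± 0.21, Car4 by -3.68 ± 0.16 and Cdh5 by -3.92 ± 0.22. The adjusted p values of these genes ranged from 8.12e-08 to 2.87e-06, and that of Selp was 0.000457. Kdr stood apart with -1.64 ± 0.20 (adjusted p 3.25e-05), a 3.12-fold difference against 8.75-fold for Pecam1 under TMM scaling. On total counts, the scale of the CPM percents that follow, the log2 differences were -2.40 ± 0.19 for Kdr and -3.90 ± 0.21 for Pecam1. Over all 24 mice, epithelial Kdr was 10.7% to 48.8% of the whole lung CPM of the same mouse, with a median of 20.3%, against a median of 7.81% for Pecam1 and 6.24% for Cdh5. Batch mattered here: the Kdr median was 40.3% in S061, 20.0% in S135 and 18.4% in S151, and that of Plvap was 14.3%, 8.57% and 4.79%. The Pecam1 medians were 7.71%, 9.38% and 5.95%. Whether Kdr was higher relative to Pecam1 than in whole lung was not tested as a difference. These ratios are of CPM within each library.

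**Figure D4:**
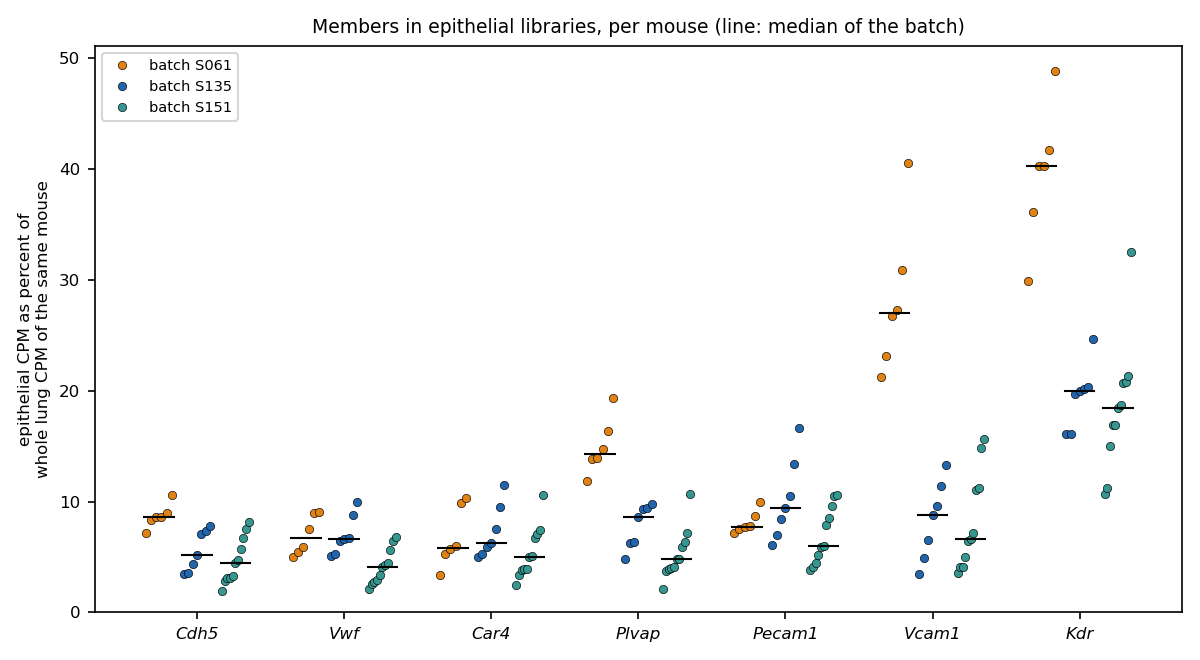
Epithelial CPM as a percent of the whole lung CPM of the same mouse (linear axis) for 7 members, a point per mouse in each batch and a line at the batch's median. Kdr had the highest median, 20.3% over 24 mice, and Kdr, Vcam1 and Plvap had higher medians in S061 than in the other batches.

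Within the epithelial libraries, Kdr fell with bleomycin. Its log2 change was -0.79 ± 0.17 with an adjusted p of 0.00382, and it was called with each of the 15 mice left out in turn, though not within S135 (-0.43) or S151 (-0.88) alone. In S151 it was at 35.4, 35.8, 25.0 and 40.4 CPM in bleomycin controls, against 36.1, 44.8 and 58.5 CPM in saline mice. In S135 it was at 77.4 and 117.0 CPM in bleomycin controls, against 104.0, 115.0 and 129.0 CPM in saline mice. In CPM the groups overlapped in both batches. Scaling bears on this value: with total counts in place of TMM scaling, the median of all genes moved to 0.37 in the epithelial bleomycin comparison, to -0.21 in the epithelial KIRA8 comparison and to -0.84 between the compartments of saline mice, against 0.02 or less in size for the first 2 and -0.06 for the last with TMM. Kdr was at -0.42 ± 0.15 for bleomycin on total counts and was still called (adjusted p 0.0406).

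With KIRA8, epithelial Kdr was at 116.0, 101.0 and 111.0 CPM in S061, against 78.7, 85.5 and 58.4 CPM in bleomycin controls, with no overlap. In S135 it was at 93.3 and 110.0 CPM with KIRA8 and 77.4 and 117.0 CPM in bleomycin controls, which overlapped. The log2 difference of 0.59 ± 0.19 did not pass (adjusted p 0.201). Vcam1 was at 28.6, 21.8 and 20.7 CPM with KIRA8 in S061, against 21.0, 19.6 and 16.8 CPM in bleomycin controls, and at 9.71 and 8.79 CPM against 7.91 and 7.13 CPM in S135. Its log2 difference of 0.54 ± 0.35 did not pass (adjusted p 0.579).

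Of the 9 members tested in epithelium, 1 was called for bleomycin (Kdr), where 8.72% of all genes were called, 0 for KIRA8, where 0.26% were called, and 0 for 3G9, where 0.0% were called. At an unadjusted p under 0.05, edgeR gave 1 member for KIRA8, where 1981 of 17291 genes reached it. For 3G9 it gave 0 members, where 566 of 17291 genes did. DESeq2 called 0 in both, and voom called 1 for KIRA8 (Kdr) and 0 for 3G9. Over all genes, DESeq2 called 243 for KIRA8 and 36 for 3G9, and voom 2248 and 7. Over the 2 batches that held saline mice, Selp was at 0.0604 to 0.922 CPM in the 6 bleomycin controls and at 0.0 to 0.347 CPM in the 6 saline mice, 5 of which had no Selp count. Those libraries held 48 Selp counts in bleomycin controls and 5 in saline mice, and the log2 change was 2.83 ± 1.10 (adjusted p 0.111). The 3 saline mice of S151 had none, which allows up to 0.0346 CPM over the group. Pecam1, Cdh5, Vwf, Plvap and Car4 had bleomycin log2 changes between -0.11 and 0.17 in epithelium, and between 0.24 and 0.51 on total counts, none of them called. Vcam1 was at 0.62 ± 0.33 (adjusted p 0.265) and Ackr1 at 1.63 ± 0.75 (adjusted p 0.191). On total counts Vcam1 was at 0.97 and Selp at 3.15, both called (adjusted p 0.0365 and 0.0432), and Ackr1 at 2.01, not called (adjusted p 0.0565). Selp and Ackr1 passed the filter on low counts only through bleomycin-treated libraries. For Ackr1 these were mainly those of S061, which held no saline mice. Neither passed it in the bleomycin fits within S135 or S151. Their rises against saline were thus favoured by the filter and are descriptions only.

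Ackr1 in epithelium was a matter of batch. It was at 5.11 to 7.28 CPM in KIRA8 mice and 4.01 to 6.33 CPM in bleomycin controls of S061. It was at 0.0 to 0.615 CPM in all mice of S135 and S151. Vcam1 was at 20.7 to 28.6 CPM with KIRA8 and 16.8 to 21.0 CPM in bleomycin controls of S061, against 7.13 to 9.71 CPM in the bleomycin-treated mice of S135. In S151 it was at 3.69 to 13.9 CPM in bleomycin controls and 4.04 to 14.7 CPM with 3G9. Its gap to S061 was thus much narrower than that of Ackr1. The 146 genes limited to S061 also stood high in these libraries, and their part in the Ackr1, Vcam1, Kdr and Plvap levels was not tested.

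**Figure D5:**
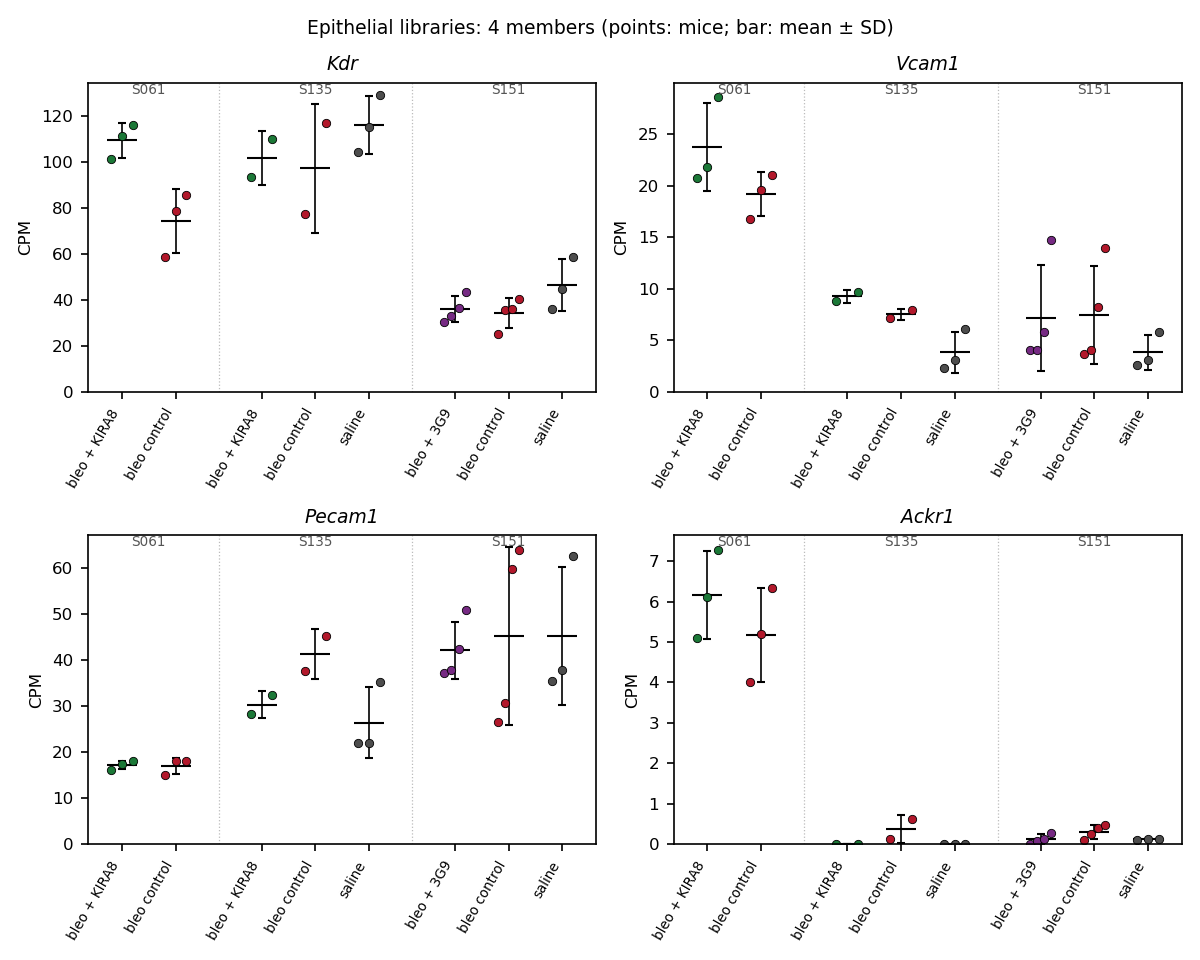
Epithelial CPM (linear axis) of Kdr, Vcam1, Pecam1 and Ackr1 by batch and arm, a point per mouse, with bars for the mean ± SD. Ackr1 was at 4.01 to 7.28 CPM in S061 and at 0.0 to 0.615 CPM elsewhere, and Kdr was lower in S151 than in the other batches.

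The responses of the compartments were also compared directly, in a fit of all 48 libraries. For bleomycin, 0 of 10 members differed between compartments, where 0.343% of all genes did. For KIRA8, 0 of 10 differed, where 0.0505% of all genes did, and for 3G9, 0 of 10, where 0.0% did. At an unadjusted p under 0.05, edgeR gave 0 members in each of the 3. Of 19808 genes, 1985 reached it for bleomycin, 2313 for KIRA8 and 448 for 3G9. The Kdr bleomycin response differed by -0.38 in epithelium relative to whole lung on the log2 scale, with a 95% interval of -0.80 to 0.05, which holds 0. The Kdr and Selp responses to bleomycin are thus not shown to differ between the compartments.

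The level of most members differed between batches even within the bleomycin controls of whole lung. Pecam1 averaged 208.0 ± 27.3 CPM in S061 (SD, n = 3), 276.0 ± 6.13 CPM in S135 (n = 2) and 642.0 ± 68.6 CPM in S151 (n = 4). Car4 averaged 24.5 ± 5.03, 92.6 ± 1.07 and 207.0 ± 35.7 CPM in the same order of batches, and Cdh5 105.0 ± 23.6, 299.0 ± 21.8 and 495.0 ± 78.2 CPM. Kdr ran otherwise, at 201.0 ± 9.65, 430.0 ± 59.9 and 215.0 ± 6.46 CPM. Selp was highest in S061, at 19.3 ± 2.59, 8.92 ± 6.19 and 6.36 ± 1.91 CPM. For Pecam1, Cdh5, Car4 and Plvap the 3 batches did not overlap, with Plvap at 92.5 to 121.0, 351.0 to 359.0 and 434.0 to 520.0 CPM. The share of all genes without such overlap was not counted, and batch differences were not tested. S061 and S135 had the same control agent, Vehicle, and still differed in these levels. S151 alone had Axum8, so there agent and batch cannot be told apart.

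Across the 24 whole lung libraries, with each batch centred on its mean, pairs of members ranged from r = -0.66 to 0.82. Pecam1 went with Cdh5 (r = 0.82), Kdr (0.805) and Plvap (0.707), and Selp went with Ackr1 (0.777), Sele (0.603) and Vcam1 (0.567). Vwf went most with Cdh5 (0.666) and Plvap (0.557), then with Pecam1 (0.435) and Selp (0.433). Its r was 0.245 with Kdr, 0.212 with Vcam1, 0.16 with Ackr1, 0.0342 with Sele and -0.0397 with Car4. Selp ran against Car4 (-0.608) and Ackr1 against Car4 (-0.66) and Kdr (-0.569). These r values are over log2 CPM, are descriptions without a test, and share library depth and arm. The 2 genes whose pattern was most like that of Selp, of 19344 compared, were ENSMUSG00000006403 (r = 0.894) and ENSMUSG00000021614 (r = 0.889), which the table does not name.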

How the data were processed

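RNA on tagged ribosomes was sequenced from the 3' end with the Lexogen QuantSeq Forward kit, per the labels. The authors deposited 1 table of raw counts, whole numbers per Ensembl gene and library. STAR 2.5.2b and GRCm38 were used, per the submitters' processing notes, and no counting program or strand setting is given in the sources used here. Column names gave the mouse and a compartment letter (E, epithelium; I, taken to be whole lung). The column of 3G9 mouse 218 in whole lung has an unexplained suffix. Mice were grouped by their labelled arm and batch.

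Counts were tested with edgeR 4.0.16 (R 4.3.3) by the quasi-likelihood test, with TMM scaling and its default filter on low counts. Arm and batch were terms in each compartment's 24 libraries. Both libraries of a mouse come from the same animal, so mouse was a block in the saline comparison of compartments and in the compartment differences, which used all 48 libraries. All tested genes were fitted, p-values were adjusted by Benjamini-Hochberg over them, and a call is an adjusted p under 0.05. An SE is the log2 change divided by the square root of its F value, and is unreliable for very low genes. Mice are separate animals. DESeq2 1.42.0, limma 3.58.1 (voom), other scalings, no filter, batches alone and mice left out were tried as alternatives. In the fits of compartment differences with a mouse left out, the dispersion trend of all 48 libraries was kept. The scripts were tested on simulated data.

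The members, gene lists and tests were chosen with earlier results of these data known. All 10 members are named. The name table matched 0 of the Ensembl IDs, so lists of other cell types' genes were not applied and only the members have symbols. CPM intervals and floors cover counting error only.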

Additional observations from a re-analysis of the deposited data

Results flagged for a closer look

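In 79 groups of 4 to 9 mice, 1 mouse stood far from the others of its group 7 times, by the gap to its nearest neighbour relative to the range of the group. Chance alone gives about 1 such case in 20 groups. Except for 3G9, the groups hold mice of more than 1 batch.

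Epithelial Selp was at 2.66 CPM in bleomycin control mouse 17, with the next mouse at 0.922 CPM. It was at 0.347 CPM in saline mouse 146, where the other 5 saline mice had 0 counts. Epithelial Sele was at 0.135 CPM in 3G9 mouse 228, with 0 in the other 3 mice of that arm. Epithelial Vcam1 was at 14.7 CPM in 3G9 mouse 218, with the next mouse at 5.76 CPM. Epithelial Cdh5 was at 22.8 CPM in KIRA8 mouse 155, with the next at 12.7 CPM. Whole lung Cdh5 and Plvap were at 932.0 CPM and 873.0 CPM in saline mouse 230, with the next mice at 403.0 CPM and 479.0 CPM.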

How the results depend on the processing

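No called member changed direction under any alternative. For bleomycin against saline in whole lung, 2 members were called as reported, 5 with DESeq2, with voom and in a fit of the 2 arms alone, 1 without batch S061, 0 within S135, 1 within S151, and 1 to 3 with a mouse left out (3 without bleomycin control mouse 149 or 206). For KIRA8 against bleomycin control in whole lung, 1 was called as reported, 3 with DESeq2, 2 with voom, 0 without S061, 0 in a fit of the 2 arms alone, 2 within S061, 0 within S135, and 0 to 1 with a mouse left out. For bleomycin in epithelium, 1 was called as reported, 3 with total counts, 2 with DESeq2, 0 within S135, 0 within S151, and 1 to 2 with a mouse left out (2 without saline mouse 146, where Selp was at 5.90 with an adjusted p of 0.0132). For KIRA8 in epithelium, voom called 1. Epithelial Selp passed the filter only through bleomycin-treated libraries, so its calls there are descriptions only. The total counts setting was chosen after seeing the data. The fits within a batch held fewer libraries, and the cause of these shifts was not tested.

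Over all genes, calls for bleomycin in whole lung numbered 1962 of 19345 as reported, 2975 with DESeq2 and 2996 with voom. They numbered 1889 of 17158 in a fit of the 2 arms alone and 1534 of 19695 without batch S061. Within S135 they numbered 227 of 15965, and within S151 476 of 17437. Calls for KIRA8 in whole lung numbered 102 as reported, 20 with total counts, 3 without batch S061 and 22 in a fit of the 2 arms alone. They numbered 701 with DESeq2, 1088 with voom, 108 of 16803 within S061 and 1 of 15965 within S135. Those for bleomycin in epithelium numbered 1508 as reported, 3622 with total counts, 2126 with DESeq2, 338 of 14732 within S135 and 551 of 15532 within S151. For KIRA8 in epithelium they numbered 45 as reported and 2248 with voom. For 3G9 in whole lung they numbered 38 as reported and 331 with voom. That comparison gave 0 within S151 and in a fit of the 2 arms alone (1074 and 1026 at an unadjusted p under 0.05 in edgeR). The shares of all genes called therefore move with the method.

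Mouse paired the compartments. In saline mice 8 members were called with the mouse block and 8 with no replicate block, and the compartment differences gave 0 members in each fit. Depth limits Sele and Ackr1 most, and both Selp and Sele in epithelium, where many libraries had few or 0 counts.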
